A study of Rattus norvegicus with 4 samples.

Results

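The cell cycle genes followed here are 45 genes of DNA replication, mitosis and the control of entry into the cell cycle, given in a list by name and chosen by their function and not by a cut-off on measured values. Earlier results of these data were known when the list was chosen, so it is not an independent choice. Of the 45 genes, 41 had a row of the array table that carried a single gene symbol, among 14506 genes measured in all, and Mcm3, Mcm4, Mki67 and Cenpf were not analysed here. The list holds 14 replication genes (12 measured), 24 mitosis genes (22 measured) and 7 genes of the D cyclins and the inhibitors of cyclin-dependent kinases (7 measured). RNA came from retroperitoneal white fat, a visceral depot, of untreated male rats of the WNIN/Ob strain aged 4 months on stock diet, 2 of the obese and 2 of the lean phenotype. The labels give the phenotype of each rat and not a genotype, and each rat gave 1 whole-tissue sample on 1 Affymetrix Rat Gene array. Values below are log2 of the deposited intensity, differences are obese minus lean on that scale, and a gene is said to have risen or fallen where limma's adjusted p was under 0.05.

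A dividing cell copies its DNA in S phase and separates the copies in mitosis. Deoxynucleotides are supplied by ribonucleotide reductase and thymidylate synthase, the Mcm helicase opens the DNA, and cyclins that switch on Cdk1 drive the later steps on the spindle. D cyclins with Cdk4 and Cdk6 act earlier, in G1, and CDK inhibitors restrain them. Most mature adipocytes do not divide, and precursor cells, macrophages and endothelial cells are among the cells of fat that can.

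All 9 adipocyte markers lay above the 95th percentile of 53 olfactory receptor genes, taken as silent in fat, in all 4 rats, with Adipoq, the adiponectin gene, at 11.99 and 12.29 in the obese rats, against 12.11 and 11.86 in the lean rats. The array of lean rat 1 stood apart in skeletal muscle genes, whose 13 markers had a summed linear intensity of 801.3 and 586.0 in the obese rats, against 40295 in lean rat 1 and 770.2 in lean rat 2. For some genes, and for the replication and mitosis medians, differences are therefore also given without that rat. For 1 gene taken alone, the smallest two-sided p of an exact permutation test in this design is 0.333, and the calls therefore depend on limma's pooling of the spread across genes. In whole tissue, more dividing cells and more RNA per dividing cell cannot be told apart.

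Of the 41 genes, 7 rose in the obese rats and 0 fell: the replication gene Rrm2 and the mitosis genes Top2a, Nusap1, Ect2, Ccnb2, Ccnb1 and Prc1. Of all genes tested, 0.772% rose and 0.0689% fell by the same rule. Both obese values exceeded both lean values for 34 of the 41 genes and were under them for 1, against 26.4% and 21.3% of all genes. At an unadjusted p under 0.05, 28 of the 41 passed above 0 and none below, where 9.93% of all genes passed above 0. The median difference was 0.97 over the 41 genes, a fold of 1.96, and 0.00047 over all genes tested. The count of 7 was 9 and 7 when obese rat 1 or 2 was left out, and 16 and 14 when lean rat 1 or 2 was, fits in which a lone rat is assumed to vary like the other group. All 7 genes were among those called in each of these fits but that without obese rat 2, in which the call of Prc1 was lost (1.33, adjusted p = 0.096).

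Many of the genes were dim in lean fat, which limits what the sizes of the differences mean. The 95th percentile of the olfactory receptor genes on each array served as a mark of background, chosen after values were seen. It was 5.51 and 5.46 in the obese rats, against 5.26 and 5.74 in the lean rats. The median of the receptor genes was higher in the lean rats, at 3.58 and 4.07, against 3.18 and 3.25 in the obese rats. Of the 41 genes, 8 were at or under the mark in both obese rats, against 26 in both lean rats. Those 26 include Rrm2, Nusap1, Ect2, Ccnb1, Ccnb2 and Prc1, so the lean level of 6 of the 7 genes that rose was near background and the size of their fold is uncertain. By gene group, 6 of 22 mitosis, 2 of 12 replication and 0 of 7 D cyclin and CDK inhibitor genes were at or under the mark in both obese rats, against 19, 7 and 0 in both lean rats. The difference of a gene near background in the lean rats gives no exact fold.

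**Figure D1:**
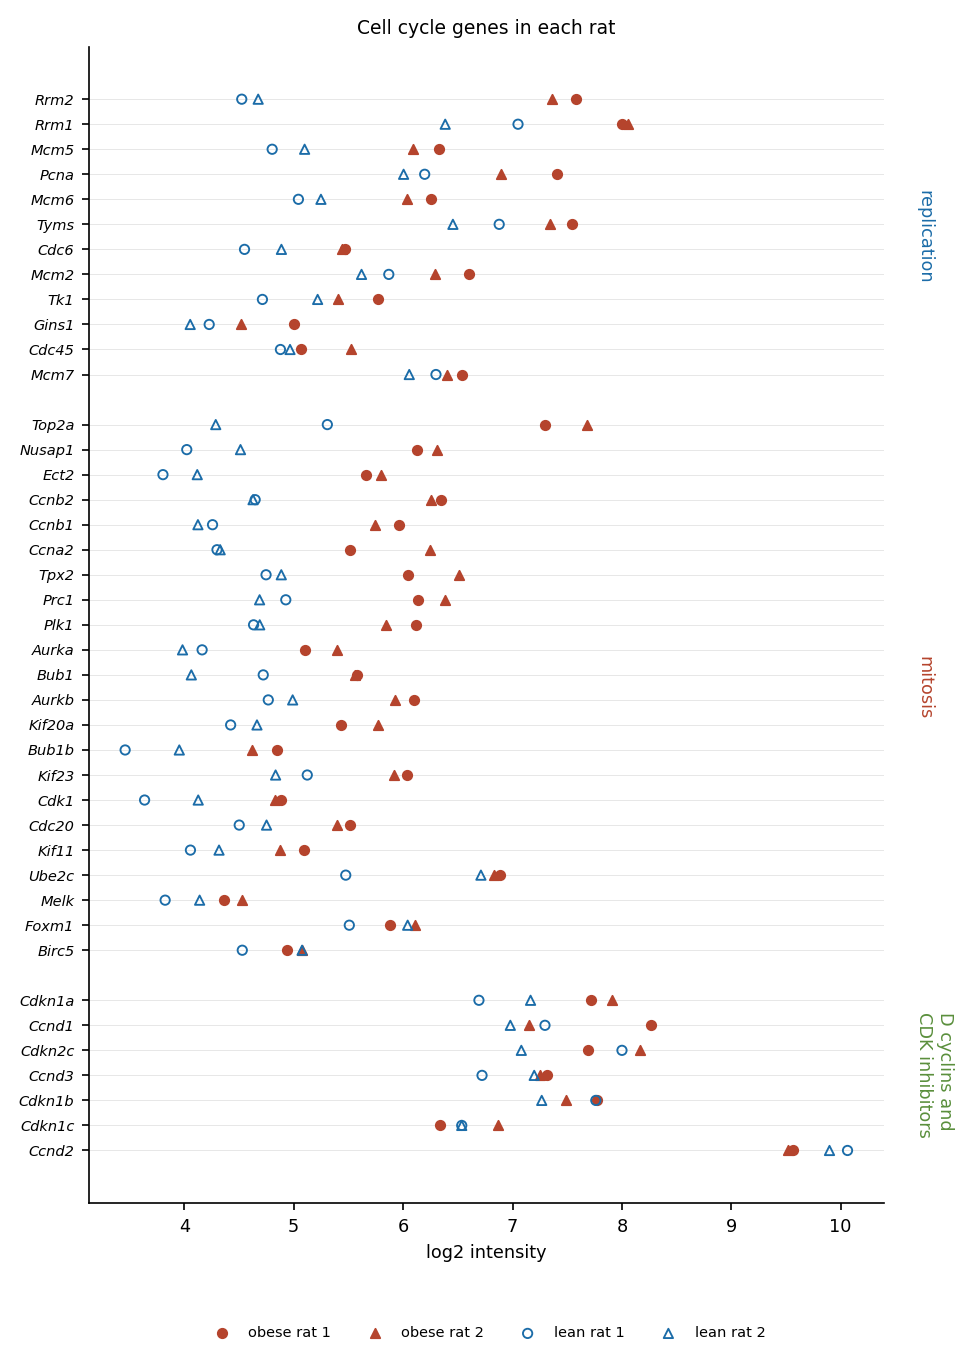
Log2 intensity (horizontal axis) of the 41 measured genes in each rat, with filled red symbols for obese and open blue symbols for lean rats, circles for rat 1 and triangles for rat 2. The red symbols lie to the right of the blue ones in all 12 replication genes and in 20 of 22 mitosis genes, and mix with them in most of the lowest block.

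The promoters of these genes are shown because the replication and mitosis genes are textbook targets of different factors. E2F factors bind in many S-phase promoters, and many mitotic promoters carry a CHR element, bound by the MuvB complex, together with CCAAT boxes, bound by NF-Y. The 250 bases before the gene start were taken from RefSeq on GRCr8. They were matched for 34 of the 45 genes, and not for Rrm2, Mcm4, Cdc6, Ccna2, Aurkb, Tpx2, Ube2c, Foxm1, Ccnd1, Ccnd2 and Cdkn1c. The words searched on both strands were TTTCCCGC, TTTCGCGC, TTTGCCGC and TTTGGCGC for E2F, TTTGAA and TTCGAA for CHR, and CCAAT. Of 88 words found in the 34 windows, 4 overlapped a word of another kind. A word is a match of letters and not a site shown to be bound.

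The last 200 bases before the start are printed 5′ to 3′ on the gene's own strand, with those words in capitals, for the 6 mitosis genes that rose and for Cdk1, Mcm5 and Mcm6, which did not pass the threshold.
Top2a, chr10:84473094-84473293, minus strand: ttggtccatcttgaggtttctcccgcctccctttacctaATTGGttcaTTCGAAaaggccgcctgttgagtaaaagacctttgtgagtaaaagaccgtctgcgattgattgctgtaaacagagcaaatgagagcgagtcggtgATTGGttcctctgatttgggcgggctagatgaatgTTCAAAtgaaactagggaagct
Nusap1, chr3:127057095-127057294, plus strand: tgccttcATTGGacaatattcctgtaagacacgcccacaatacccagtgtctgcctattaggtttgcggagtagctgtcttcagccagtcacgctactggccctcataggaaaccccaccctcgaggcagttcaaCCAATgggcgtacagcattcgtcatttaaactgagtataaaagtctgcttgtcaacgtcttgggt
Ccnb1, chr2:33655226-33655425, minus strand: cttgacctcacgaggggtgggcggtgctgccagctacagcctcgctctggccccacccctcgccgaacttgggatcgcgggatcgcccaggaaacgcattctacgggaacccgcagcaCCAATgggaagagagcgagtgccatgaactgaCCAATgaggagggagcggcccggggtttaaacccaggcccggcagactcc
Ccnb2, chr8:79981659-79981858, minus strand: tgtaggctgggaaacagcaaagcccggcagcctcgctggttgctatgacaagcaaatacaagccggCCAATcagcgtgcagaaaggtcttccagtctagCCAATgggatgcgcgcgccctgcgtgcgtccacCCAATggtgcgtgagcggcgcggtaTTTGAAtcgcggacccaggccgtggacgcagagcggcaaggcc
Prc1, chr1:143659281-143659480, plus strand: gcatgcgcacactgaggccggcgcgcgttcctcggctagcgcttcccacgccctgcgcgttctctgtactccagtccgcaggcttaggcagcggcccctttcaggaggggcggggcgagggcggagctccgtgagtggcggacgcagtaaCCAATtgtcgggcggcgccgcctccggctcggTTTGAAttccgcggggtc
Ect2, chr2:111966627-111966826, minus strand: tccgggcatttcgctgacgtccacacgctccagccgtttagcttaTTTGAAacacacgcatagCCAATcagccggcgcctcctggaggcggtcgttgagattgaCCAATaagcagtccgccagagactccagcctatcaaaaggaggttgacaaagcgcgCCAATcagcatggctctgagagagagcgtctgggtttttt
Cdk1, chr20:19265093-19265292, plus strand: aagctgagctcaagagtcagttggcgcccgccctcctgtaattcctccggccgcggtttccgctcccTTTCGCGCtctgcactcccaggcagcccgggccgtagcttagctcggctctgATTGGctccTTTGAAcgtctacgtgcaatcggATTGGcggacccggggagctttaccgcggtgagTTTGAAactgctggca
Mcm5, chr19:13488613-13488812, plus strand: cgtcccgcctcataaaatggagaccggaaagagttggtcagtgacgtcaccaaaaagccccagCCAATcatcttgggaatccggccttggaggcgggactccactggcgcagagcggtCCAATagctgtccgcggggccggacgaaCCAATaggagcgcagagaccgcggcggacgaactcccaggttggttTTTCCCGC
Mcm6, chr13:42404353-42404552, minus strand: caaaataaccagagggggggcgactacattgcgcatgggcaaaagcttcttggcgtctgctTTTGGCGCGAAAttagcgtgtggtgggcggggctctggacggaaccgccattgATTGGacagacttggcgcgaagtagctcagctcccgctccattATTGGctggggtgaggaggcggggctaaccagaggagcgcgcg

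An E2F word was present in 6 of 11 replication windows (54.5%), in 1 of 19 mitosis windows (5.26%, Cdk1) and in 0 of 4 windows of the D cyclins and CDK inhibitors, against 2.52% of the 12519 windows of all genes tested. The 6 replication genes with the word were Tyms, Mcm2, Mcm5, Mcm6, Mcm7 and Gins1. No measured replication gene with a window passed the threshold, with or without the word. Rrm2, the replication gene that rose, had no window, so calls cannot be set against this word. A CHR word was present in 3 of 11 replication windows (27.3%) and in 10 of 19 mitosis windows (52.6%), against 15.2% of all. A CCAAT box was present in 8 of 11 replication windows (72.7%) and 15 of 19 mitosis windows (78.9%), against 35.4% of all. A CHR word together with a CCAAT box was present in 2 of 11 replication windows (18.2%) and 9 of 19 mitosis windows (47.4%), against 5.74% of all. Of the 6 genes that rose and had a window, 6 held a CCAAT box and 4 of them (Top2a, Ccnb2, Prc1 and Ect2) also a CHR word, while Nusap1 and Ccnb1 held no CHR word as spelled here. The mitosis genes Bub1, Aurka and Melk held none of the 3 kinds of word. Median GC content of the windows was 55.2% for replication, 57.6% for mitosis, 64.6% for the D cyclins and CDK inhibitors and 57.2% for all genes tested. In 38 windows of further mitosis genes, a CHR word with a CCAAT box was found in 19 and an E2F word in 1, while of 29 windows of further replication genes they were found in 3 and 5. These shares are descriptions, and no test of them was made.

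**Figure D2:**
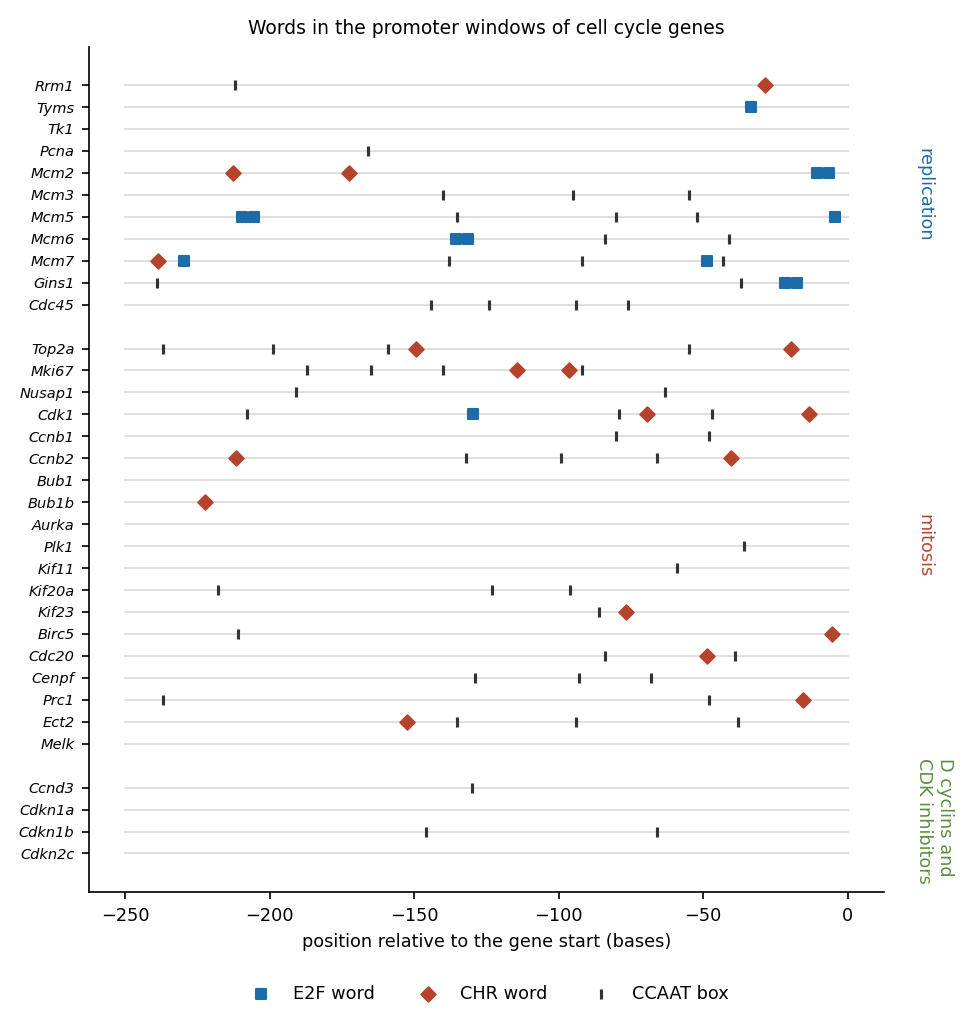
Positions of the E2F words (blue squares), CHR words (red diamonds) and CCAAT boxes (black bars) in the 250 bases before the start of the 34 genes with a window, with the distance from the gene start in bases on the horizontal axis. Blue squares lie in 6 of the 11 replication windows and in 1 of the 19 mitosis windows, and red diamonds in 10 of the 19 mitosis windows.

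Among the genes that supply DNA precursors, 1 of 4 rose, against 0.772% of all genes tested. Rrm2, the small subunit of ribonucleotide reductase, whose level follows S phase, was at 7.58 and 7.37 in the obese rats, against 4.52 and 4.68 in the lean rats. It rose by 2.87 ± 0.25 (SE, n = 2 per group, limma adjusted p = 0.011), against a lean level at or under the background mark. It was called under all 13 alternative settings, with differences of 2.61 to 2.98. A dimmer row of Rrm2 gave 7.07 and 6.91 in the obese rats, against 4.73 and 4.55 in the lean rats. That second row rose by 2.35 ± 0.25 (adjusted p = 0.022 over all rows of the table).

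Rrm1, the large subunit, was at 7.997 and 8.06 in the obese rats, against 7.05 and 6.38 in the lean rats, and its difference of 1.31 ± 0.32 did not pass (adjusted p = 0.123). The groups did not overlap, but the lean rats differed from each other by 0.67. With a rat left out the difference of Rrm1 was 0.98 to 1.64. A dimmer row of Rrm1 was at 3.26 and 3.74 in the obese rats, against 3.12 and 3.52 in the lean rats, under the background mark on every array, so it bears on no difference. Tyms, the thymidylate synthase, was at 7.54 and 7.35 in the obese rats, against 6.88 and 6.46 in the lean rats (0.78 ± 0.29, adjusted p = 0.271). Tk1, the thymidine kinase of the salvage route, was at 5.77 and 5.40 in the obese rats, against 4.71 and 5.22 in the lean rats (0.62 ± 0.27, adjusted p = 0.331). For all 4 precursor genes both obese values exceeded both lean values, against 26.4% of all genes.

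Of 7 measured genes that load or form the replicative helicase none passed, with a median difference of 0.70 and a range of 0.29 to 1.25. Both obese values exceeded both lean values in all 7, against 26.4% of all genes. Mcm5, a helicase subunit, was at 6.33 and 6.09 in the obese rats, against 4.80 and 5.10 in the lean rats (1.25 ± 0.25, adjusted p = 0.073). Mcm6 was at 6.26 and 6.04 in the obese rats, against 5.04 and 5.25 in the lean rats (1.00 ± 0.24, adjusted p = 0.123). Mcm2 was at 0.70 ± 0.26 and Mcm7 at 0.29 ± 0.26, although the subunits of this helicase act together in 1 ring. Mcm7 lay at 6.54 and 6.40 in the obese rats, against 6.30 and 6.06 in the lean rats, and its 95% interval was -0.30 to 0.88. Cdc6, which loads the helicase at origins, was at 0.73 ± 0.24, and the helicase partners Gins1 and Cdc45 were at 0.62 ± 0.25 and 0.37 ± 0.25. Pcna, the sliding clamp of the DNA polymerases, was at 7.40 and 6.90 in the obese rats, against 6.20 and 6.004 in the lean rats (1.05 ± 0.29, adjusted p = 0.163).

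Of the 22 measured mitosis genes 6 rose, against 0.772% of all genes tested. There were 2 calls each among the mitotic cyclins and kinases, the genes of chromosomes and spindle, and the genes of cytokinesis. Top2a, the topoisomerase that untangles sister chromosomes, was at 7.29 and 7.68 in the obese rats, against 5.31 and 4.29 in the lean rats. It rose by 2.69 ± 0.36 (adjusted p = 0.025), a fold of 6.45, and the lean rats differed from each other by 1.02. The difference was 3.20 without lean rat 1 and 2.18 without lean rat 2, and the call was lost with quantile normalization (2.73, adjusted p = 0.053). Nusap1, a protein that bundles spindle microtubules, was at 6.13 and 6.31 in the obese rats, against 4.02 and 4.51 in the lean rats. It rose by 1.95 ± 0.26 (adjusted p = 0.025).

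Both mitotic B cyclins rose. Ccnb1 was at 5.96 and 5.75 in the obese rats, against 4.26 and 4.12 in the lean rats, and rose by 1.66 ± 0.23 (adjusted p = 0.025). Ccnb2 was at 6.35 and 6.26 in the obese rats, against 4.65 and 4.63 in the lean rats, and rose by 1.66 ± 0.23 (adjusted p = 0.025). A dimmer row of Ccnb2 gave 1.67 ± 0.24, but it held the same value as the first row in obese rat 2. It lay close to the first row elsewhere, at 6.33 in obese rat 1 and at 4.63 and 4.62 in the lean rats. It is therefore not counted as a separate measurement, and whether the rows share probes was not checked. Ccna2, the cyclin of S phase and early mitosis, was at 5.52 and 6.25 in the obese rats, against 4.30 and 4.33 in the lean rats, with the wider spread in the obese rats (1.57 ± 0.29, adjusted p = 0.058). Their partner Cdk1, the kinase that drives entry into mitosis, was at 4.88 and 4.83 in the obese rats, against 3.64 and 4.13 in the lean rats (0.97 ± 0.25, adjusted p = 0.140). Both obese values exceeded both lean values for all of these 4 genes, as they did for 26.4% of all genes.

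Cytokinesis genes, which act when the daughter cells part, gave calls for 2 of 4, where 0.772% of all genes tested rose. Ect2, the exchange factor that switches on RhoA at the cleavage plane, was at 5.66 and 5.80 in the obese rats, against 3.80 and 4.12 in the lean rats. It rose by 1.77 ± 0.23 (adjusted p = 0.025). Prc1, which crosslinks the microtubules of the central spindle, was at 6.14 and 6.38 in the obese rats, against 4.93 and 4.69 in the lean rats. Prc1 rose by 1.45 ± 0.24 (adjusted p = 0.043). The central spindle kinesins Kif20a and Kif23 were at 1.06 ± 0.24 and 1.00 ± 0.24, with adjusted p of 0.108 and 0.121.

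Plk1 and Tpx2 were nearest to the threshold among the genes that did not pass. Plk1, a kinase of mitotic entry and exit, was at 6.12 and 5.84 in the obese rats, against 4.63 and 4.69 in the lean rats (1.32 ± 0.23, adjusted p = 0.053). Tpx2, which activates Aurka on the spindle, was at 6.04 and 6.51 in the obese rats, against 4.75 and 4.89 in the lean rats (1.46 ± 0.26, adjusted p = 0.053). Each was called in 7 of 13 alternative settings. The Aurora kinases Aurka, of the spindle poles, and Aurkb, of the chromosomal passenger complex, were at 1.18 ± 0.23 and 1.13 ± 0.24. The spindle checkpoint kinase genes Bub1 and Bub1b were at 1.18 ± 0.27 and 1.03 ± 0.26. With a rat left out their differences were 0.85 to 1.51 and 0.78 to 1.27. Kif11, the motor that separates the spindle poles, was at 0.80 ± 0.23, and Cdc20, the activator of the anaphase-promoting complex, at 0.83 ± 0.23.

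The remaining mitosis genes had smaller or less even differences. Ube2c, the ubiquitin-conjugating enzyme of the anaphase-promoting complex, was at 6.89 and 6.83 in the obese rats, against 5.48 in lean rat 1 and 6.71 in lean rat 2. The lean rats were thus 1.24 apart, and its difference of 0.77 ± 0.40 was 0.15 without lean rat 1 and 1.38 without lean rat 2, where alone of these fits it passed (adjusted p = 0.034). Birc5, the survivin subunit of the chromosomal passenger complex, was at 4.94 and 5.08 in the obese rats, against 4.53 and 5.08 in the lean rats (0.21 ± 0.26). Foxm1, a transcription factor of mitotic genes, was at 5.88 and 6.10 in the obese rats, against 5.51 and 6.04 in the lean rats (0.22 ± 0.28). The groups overlapped for Birc5 and Foxm1, and both differences were below 0 without lean rat 1 (-0.068 and -0.049). Melk, a kinase of dividing cells, was at 0.46 ± 0.23.

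**Figure D3:**
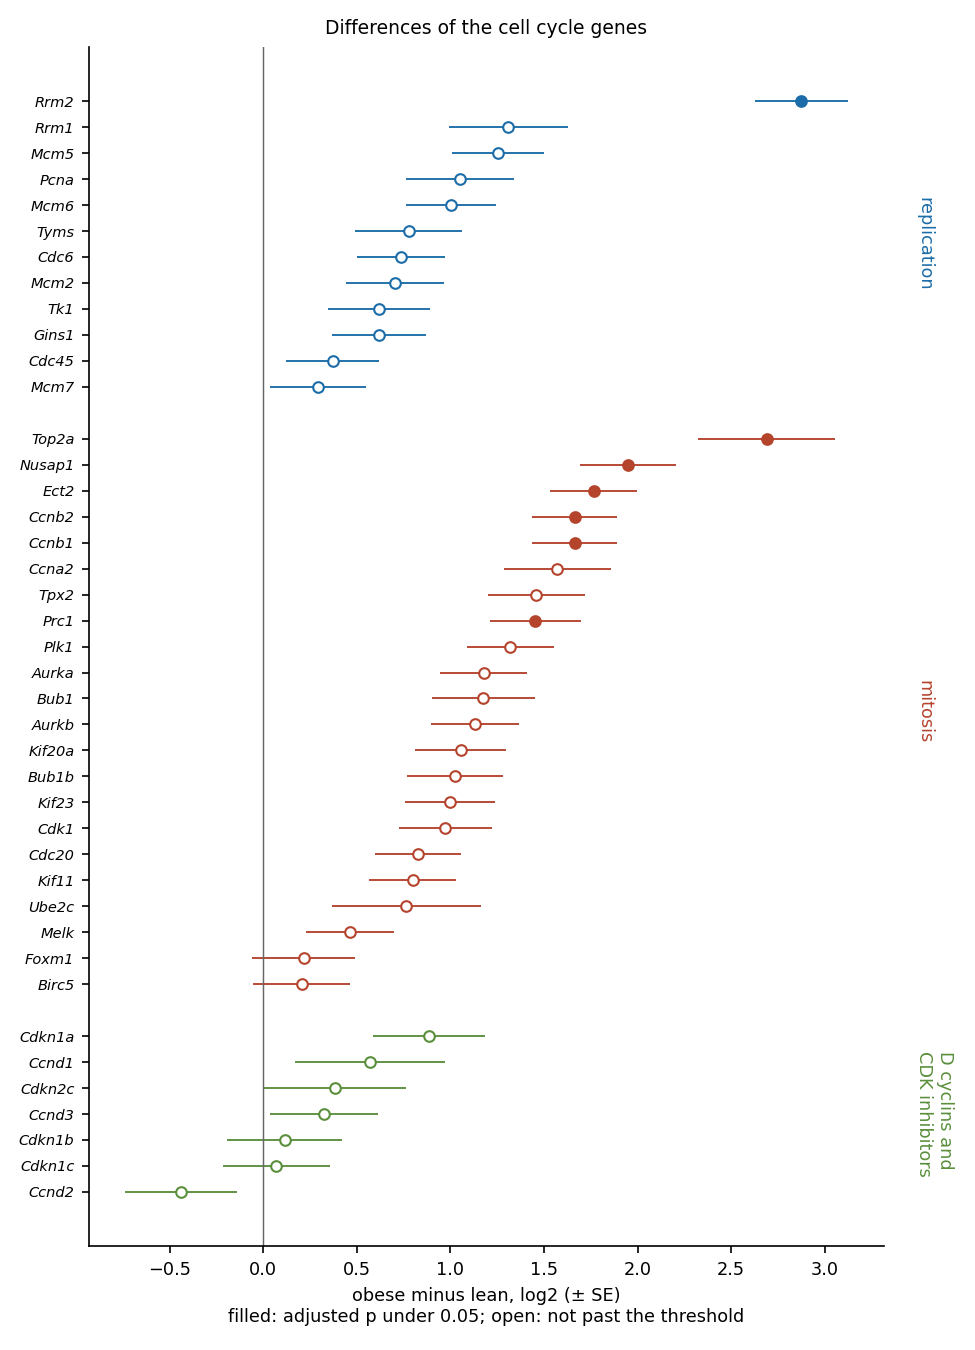
Obese minus lean difference of each measured gene on the log2 scale (horizontal axis) with its standard error from limma, sorted within the replication (blue), mitosis (red) and D cyclin and CDK inhibitor (green) genes; filled points passed an adjusted p of 0.05. The filled points are 1 replication gene and 6 mitosis genes, and Ccnd2 is the only gene left of 0, where Cdkn1b and Cdkn1c also lie with quantile normalization.

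None of the 7 genes of the D cyclins and CDK inhibitors passed, with a median of 0.32, which was 0.16 with quantile normalization and 0.070 without lean rat 2. Cdkn1a, the p21 inhibitor induced by p53 among others, was at 7.72 and 7.91 in the obese rats, against 6.69 and 7.16 in the lean rats (0.89 ± 0.30, adjusted p = 0.239), with no overlap of the groups. Ccnd1, cyclin D1, was at 8.27 and 7.15 in the obese rats, against 7.30 and 6.98 in the lean rats. The obese rats differed by 1.12 from each other for Ccnd1, more than its difference of 0.57 ± 0.40, and its 95% interval was -0.35 to 1.49.

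Ccnd2, cyclin D2, was at 9.57 and 9.52 in the obese rats, against 10.06 and 9.90 in the lean rats. Both obese values were under both lean values for this gene alone of the 41, at -0.44 ± 0.30 (adjusted p = 0.522). Ccnd3 was at 7.32 and 7.25 in the obese rats, against 6.72 and 7.20 in the lean rats (0.32 ± 0.29). The groups of Ccnd3 were separated by less than the lean rats were from each other.

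The inhibitors Cdkn1b (p27), Cdkn1c (p57) and Cdkn2c (p18) had overlapping groups. Cdkn1b was at 7.77 and 7.49 in the obese rats, against 7.76 and 7.27 in the lean rats (0.12 ± 0.31). Cdkn1c was at 6.34 and 6.87 in the obese rats, against an identical 6.54 in each lean rat (0.07 ± 0.28). Cdkn2c was at 7.69 and 8.16 in the obese rats, against 8.001 and 7.08 in the lean rats (0.39 ± 0.38). With quantile normalization the differences of Cdkn1b and Cdkn1c were below 0 (-0.045 and -0.034), so no direction is given for these genes. Their 95% intervals were -0.60 to 0.83 for Cdkn1b, -0.59 to 0.73 for Cdkn1c and -0.49 to 1.26 for Cdkn2c, which do not exclude differences as large as those of several replication genes.

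Set side by side, the mitosis genes had a median difference of 1.15 (quartiles 0.87 and 1.54), the replication genes 0.76 (0.62 and 1.10) and the D cyclins and CDK inhibitors 0.32 (0.093 and 0.48), where all genes tested had quartiles of -0.26 and 0.33. Calls were made for 6 of 22 mitosis, 1 of 12 replication and 0 of 7 D cyclin and CDK inhibitor genes, where 0.772% of all genes tested rose. Beside that share, 0 of 7 does not set the D cyclins and CDK inhibitors apart from other genes. Both obese values exceeded both lean values in 20 mitosis, 12 replication and 2 D cyclin and CDK inhibitor genes. Over all genes tested they did so in 26.4%, a share near that of the D cyclins and CDK inhibitors. The replication median minus the mitosis median was -0.40, and lay between -0.48 and -0.29 with a rat left out. Relative to the lean mean of each gene, the median of the mitosis genes was 1.16 and 1.18 in the obese rats, against -0.12 in lean rat 1 and 0.12 in lean rat 2. For the replication genes the medians were 0.87 and 0.70 in the obese rats, against 0.022 in lean rat 1 and -0.022 in lean rat 2. The groups also differ in how many genes were near background in the lean rats, 19 of 22 mitosis, 7 of 12 replication and 0 of 7 D cyclin and CDK inhibitor genes, and the third median was 0.070 without lean rat 2 and 0.16 with quantile normalization. These medians are descriptions of chosen genes, and the difference between the gene groups was not tested.

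**Figure D4:**
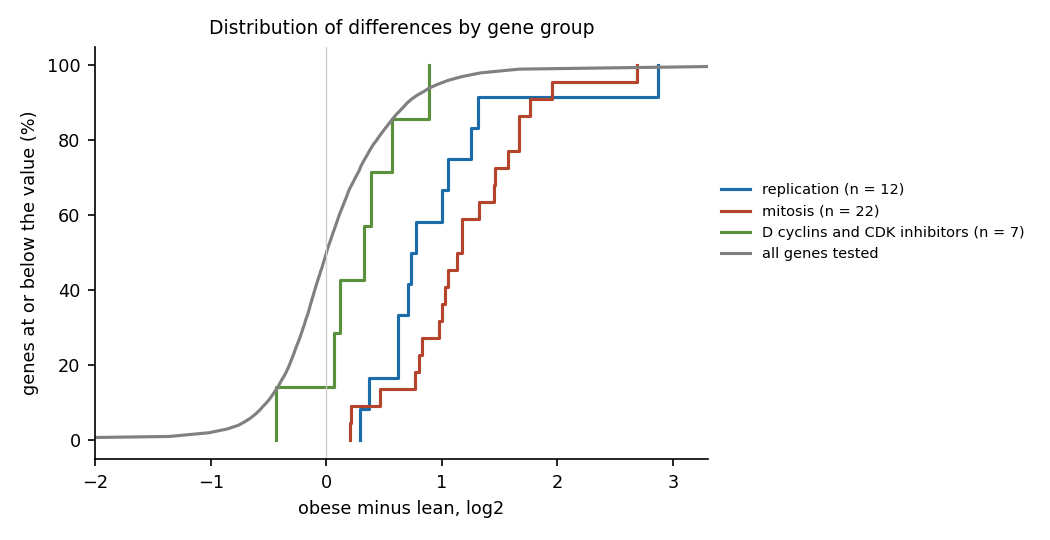
Cumulative share of genes (vertical axis, percent) with an obese minus lean difference at or below the log2 value on the horizontal axis, for the replication, mitosis, and D cyclin and CDK inhibitor genes and for all 14506 genes (grey, cut off at both ends of the axis). At their medians the curves lie at 0.32 (D cyclins and CDK inhibitors), 0.76 (replication) and 1.15 (mitosis), right of the grey curve at 0.00047, and the replication and mitosis curves cross at both ends.

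Further genes of the same pathways were read from lists of other genes, also chosen with earlier results of these data known. Of 30 further mitosis genes measured, 9 rose and 0 fell, where 0.772% of all genes tested rose and 0.0689% fell. Their median difference was 1.01, against 0.00047 over all genes tested. Both obese values exceeded both lean values in 26 of the 30, against 26.4% of all genes. Rises named here were in Pbk, a mitotic kinase, at 6.02 and 6.28 in the obese rats, against 3.87 and 3.64 in the lean rats (2.40 ± 0.23, adjusted p = 0.011), and in the kinetochore gene Ndc80 (1.71 ± 0.24, adjusted p = 0.027). Cenpk, also of the kinetochore, rose by 1.66 ± 0.27 and Ccnf, the cyclin F gene, by 1.65 ± 0.25, with adjusted p of 0.041 and 0.033. Cdc25b, a phosphatase that activates Cdk1, went the other way without passing and was singled out after its values were seen. It lay at 7.59 and 6.77 in the obese rats, against 8.13 and 8.89 in the lean rats (-1.33 ± 0.40, adjusted p = 0.197).

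Of 27 further replication genes none passed, with a median of 0.37. Both obese values exceeded both lean values in 16 of the 27, against 26.4% of all genes. Those with the smallest p were Uhrf1, which guides maintenance of DNA methylation behind the fork, at 1.09 ± 0.25 (adjusted p = 0.107), and the exonuclease gene Exo1 at 0.86 ± 0.23 (adjusted p = 0.154). Of 20 further genes of G1 control none passed, with a median of 0.27. The E-type cyclins Ccne2 and Ccne1, which act with Cdk2 at the start of S phase, had the smallest p there, at 1.12 ± 0.27 and 1.02 ± 0.35 (adjusted p = 0.123 and 0.251). Of 11 p53 target genes none passed, with a median of 0.14, and the growth arrest gene Gadd45a and the stress kinase gene Plk3 were at 1.44 ± 0.30 and 0.93 ± 0.31 (adjusted p = 0.084 and 0.235).

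Among the lists of cell type markers, only the macrophage list held genes that passed the threshold. Of 16 macrophage markers 6 rose, against 0.772% of all genes tested. The summed linear intensity of the 16 was 14746 in obese rat 1 and 10451 in obese rat 2, against 3366 and 3491 in the lean rats. The markers were uneven, with differences from -0.054 (Cd163) to 4.07 (Spp1) and a median of 1.73. The groups overlapped for 3 of the 16, Cd163, C1qa and C1qb, and for 7583 of all 14506 genes tested. Obese rat 1 exceeded obese rat 2 in 13 of the 16 macrophage markers, in 10 of 12 replication genes and in 11 of 22 mitosis genes. Over all genes tested, obese rat 1 was the higher in 6596 of 14506, and each of these counts compares 1 rat with 1 other. None of 12 lymphocyte markers rose or fell, their summed intensity was 314.9 and 323.3 in the obese rats, against 285.9 and 348.0 in the lean rats, and 10 of the 12 were not above the background mark in any rat, the exceptions being Jchain in obese rat 2 and Cd79b in both lean rats. No call was made for the 13 skeletal muscle markers. None of 12 progenitor and fibroblast markers (median -0.06) and none of 9 endothelial markers (median -0.28) passed, nor did any of 5 erythroid (median -0.89) and 7 mesothelial markers (median -1.01). The summed intensity of the mesothelial markers was 1043 in lean rat 1 and 309.3 in lean rat 2, against 219.4 and 251.2 in the obese rats. The part of any of these cell types in the differences of the cell cycle genes was not tested. Without lean rat 1, whose muscle markers were high, the medians were 1.20 for the mitosis genes and 0.86 for the replication genes, so these differences were as large without that rat.

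**Figure D5:**
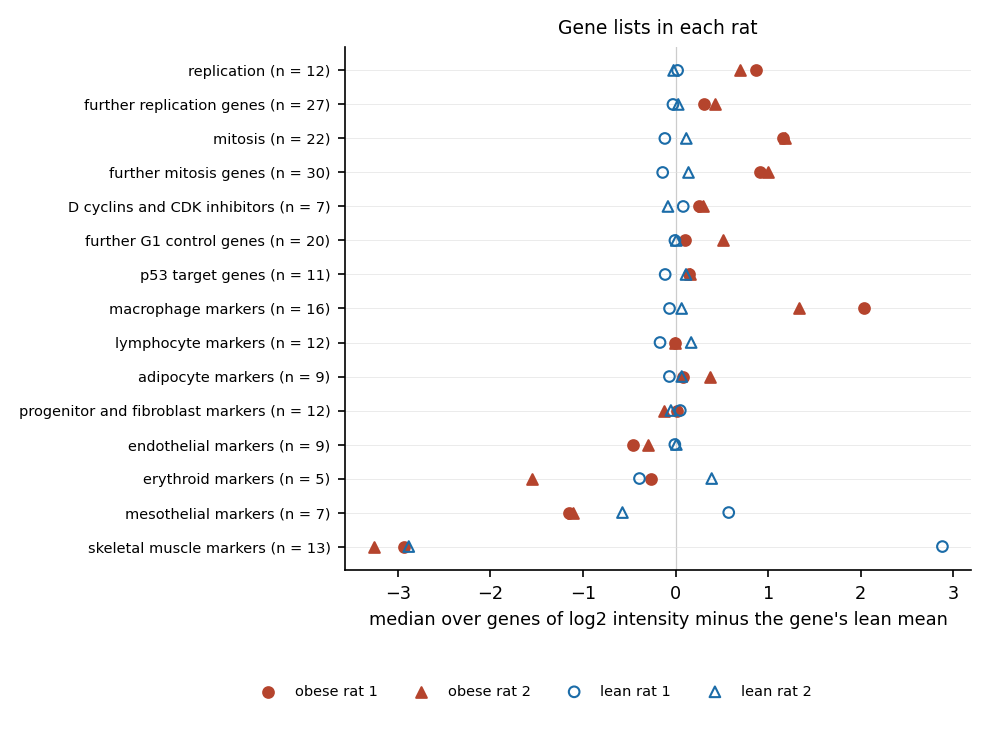
Median over the genes of each list (rows, with the number measured) of the log2 intensity minus the gene's lean mean, for each rat; filled red symbols are obese and open blue symbols lean rats, circles rat 1 and triangles rat 2. Mitosis genes lie at 1.16 and 1.18 in the obese rats, macrophage markers at 2.04 and 1.33, and skeletal muscle markers set lean rat 1 apart from the other rats.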

How the data were processed

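The authors deposited 1 intensity value on a linear scale for each of 29214 rows and 4 arrays. The submitters' processing notes name RMA, a method that as usually run normalizes arrays by quantiles and so reduces shifts common to most genes. The deposited arrays still did not share a distribution. Their median intensity over all rows was 39.9 in each obese rat, against 41.0 in lean rat 1 and 44.5 in lean rat 2. The software and version of RMA were not given in the sources used here. Intensities were turned to log2. Rows were named by the platform's annotation table, and 15310 had exactly 1 symbol. Where a gene had several rows the brightest over the 4 arrays was kept, which gave 14506 genes. The fit of obese against lean rats used limma 3.58.1 under R 4.3.3 (lmFit, eBayes with a mean-variance trend, no covariates), with Benjamini-Hochberg adjustment over all 14506 genes and a threshold of 0.05. The procedure was tested on simulated data.

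The genes and lists were chosen with earlier results of these data known. The named genes are all listed cell cycle genes and, of each other list of pathway genes, up to 4 called genes by size, and the 2 of smallest p in a list without calls. Promoter windows and gene starts came from RefSeq on GRCr8, and no coordinates are given for array rows. The number of arrays limits the precision of every value. Alternatives were a block, other scalings, filters, row choices and variance models, and each rat left out. Figures were drawn with matplotlib 3.10.9.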

Additional observations from a re-analysis of the deposited data

How the results depend on the processing

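The count of 7 genes that rose was 12 with the rat number as a replicate block, 13 with a robust variance model and 28 at an unadjusted p, and 7 to 16 with a rat left out; the 7 genes were among those called in each of these settings except without obese rat 2. Under the other settings it was 5 to 9, with 5 after quantile normalization. The labels do not say that a rat number marks a shared litter or day, and the difference of obese rat 1 minus obese rat 2 had a correlation of 0.020 over genes with that of lean rat 1 minus lean rat 2, so the numbers were not taken as pairs. The median of the D cyclins and CDK inhibitors was 0.16 with quantile normalization and 0.070 to 0.36 with a rat left out. Leaving out a rat gave replication medians of 0.70 to 0.89, and the mitosis median stayed within the spread between replicates under every setting run. Signs turned for Cdkn1b (-0.045) and Cdkn1c (-0.034) with quantile normalization. With a rat left out they turned for Cdkn1b (-0.13 to 0.36), Cdkn1c (-0.20 to 0.34), Cdkn2c (-0.074 to 0.85), Birc5 (-0.068 to 0.48) and Foxm1 (-0.049 to 0.48). The call of Prc1 was lost in 4 of 13 settings and that of Top2a with quantile normalization, and the other 5 genes were called in all 13. In the last 150 bases before the start, 0 replication windows held a CHR word with a CCAAT box. The causes were not tested. Signal near background in the lean rats limits the fold of most of these genes.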
